A study of Capra hircus with 4 samples.

Results

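The genes described here were the EGF-like ligands AREG (amphiregulin), EREG (epiregulin), BTC (betacellulin) and NRG1 (neuregulin 1), the receptors EGFR and ERBB4, and the receptor inhibitor ERRFI1. They were picked by name and are 7 of the 28944 genes in 4 single-nucleus RNA-seq count tables from goat ovary, and all 7 had a feature in every table. The ovaries came from 2 Nubian goats, labelled as the polytocous group with a litter size of 3 or more, and 2 Du'an goats, labelled as the monotocous group with a litter size of 1. All 4 animals were 3 years old and had their estrus synchronised with a progesterone device holding 300 mg for 17 days, and no superovulation hormone was given. By the study's methods, the left ovary was taken some hours after estrus had begun. Each goat gave 1 library made with the Chromium 3' kit, so the goat was the replicate, and breed, litter size label and animal cannot be told apart.

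In the preovulatory follicle the surge of luteinising hormone acts on mural granulosa cells (GCs), which line the follicle wall and carry its receptor. AREG, EREG and BTC are then made as membrane-anchored precursors and are released by proteases, among them ADAM17. They bind EGFR on neighbouring mural GCs and on the cumulus GCs around the oocyte. This relay is known for driving cumulus expansion and the resumption of meiosis. NRG1 binds ERBB3 and ERBB4, and BTC binds both EGFR and ERBB4. ERRFI1, also called MIG6, is induced by receptor signalling and binds the EGFR kinase domain to switch it off. In the RefSeq gene order for goat, EPGN, EREG, AREG and BTC follow each other on chromosome 6 with no other gene between them.

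After filtering, 44734 of 48332 nuclei were kept, with 8723 to 15848 nuclei and 29800057 to 54540864 unique molecular identifiers (UMIs) per goat. A total of 361 barcodes occurred in 2 or more libraries. Clusters were named from marker lists, with the 7 genes kept out of the clustering, and 38788 nuclei fell into 15 named classes. Of these, 20036 were placed in a granulosa set, called GCs here, with 4 states named mural-like, cumulus-like, progenitor-like and cycling granulosa-like. A cluster could enter this set on the progenitor list alone. A level is given in CPM, the usual depth-scaled unit for counts, from the UMIs of the gene summed over the nuclei of a class in 1 goat and scaled to the total of that sum, and sums of at least 20 nuclei were used. Du'an goat 1 had 7 mural-like nuclei, so the mural-like state rested on 3 goats, and ciliated-like nuclei reached 20 in 2 goats.

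The state names were not equally well met by their markers. In mural-like nuclei 6 of 7 mural markers were at their highest of all classes, with LHCGR at a mean of 2099 CPM against 41.1 in cumulus-like nuclei. In cumulus-like nuclei only 1 of 5 cumulus markers was at its highest, and the summed list stood at 1307 CPM there against 1270 in cycling nuclei. In progenitor-like nuclei 3 of 6 markers were highest in their own class, and a list of 6 glial markers summed to 2365 to 5163 CPM over goats with 3 of the 6 at 0. A list of 5 luteal markers, none at 0, summed to 714 to 1710 CPM over goats in mural-like, 266 to 960 in progenitor-like and 116 to 167 CPM in cumulus-like nuclei. Mean FSHR, a granulosa marker, was 838 CPM in progenitor-like against 1632 in mural-like and 3524 in cumulus-like nuclei. FST was 86.2 against 870 and 656 CPM. CAMTA1 (430 against 399 CPM) and CYTH3 (119 against 88.6) were instead a little higher in progenitor-like than in mural-like nuclei. The states were also built from different subclusters in different goats, for example mural-like nuclei came 94.9% from subcluster 7 in Du'an goat 2, 84.5% from subcluster 1 in Nubian goat 1 and 90.4% from subcluster 12 in Nubian goat 2. The part of these markers and of this uneven makeup in the values below was not tested.

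The 7 genes covered a wide range of counts. AREG gave 213 UMIs in 87 nuclei (0.194% of all nuclei) and EREG gave 810 UMIs in 425 nuclei (0.95%). BTC gave 1675 UMIs in 1282 nuclei and NRG1 gave 8215 UMIs in 2671 nuclei. EGFR, ERBB4 and ERRFI1 gave 70466, 50649 and 57238 UMIs and were seen in 43.7%, 22.2% and 30.8% of nuclei. Fewer positive nuclei and less RNA per nucleus cannot be told apart in these sums.

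**Figure D1:**
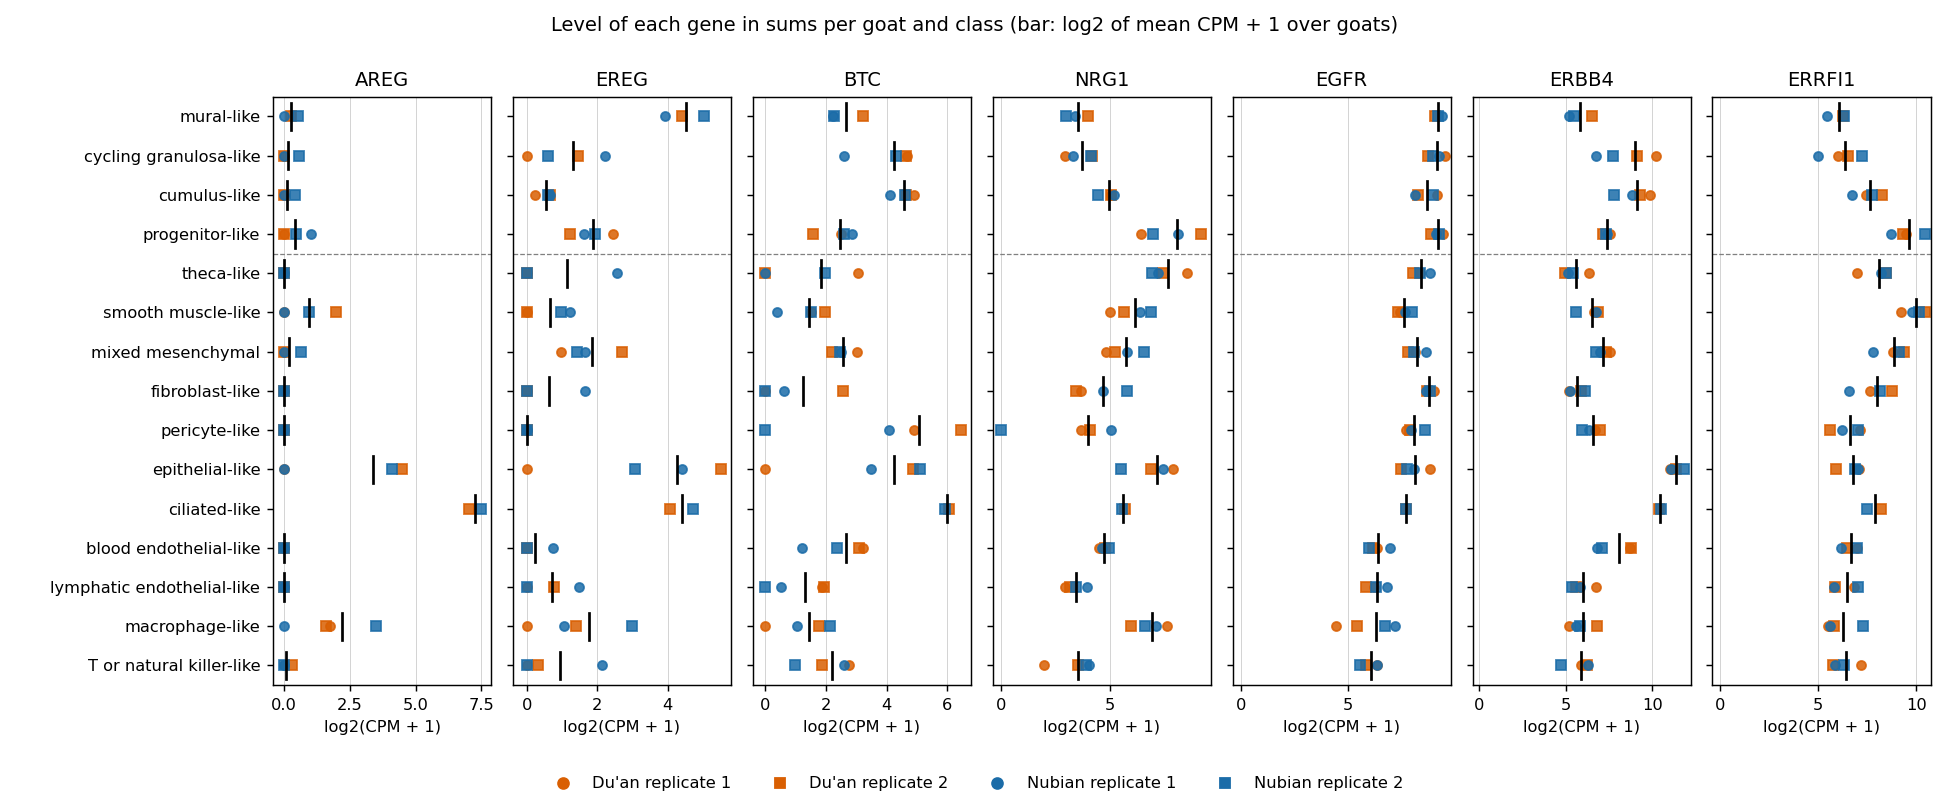
Level of each of the 7 genes on the log2(CPM + 1) scale in every class, with 1 point per goat, a black bar at the mean over goats and a dashed line between the granulosa states and the other classes. The mean was highest in mural-like nuclei for EREG (14.2 to 32.2 CPM over goats), in ciliated-like nuclei for AREG (129 and 179 CPM) and in epithelial-like nuclei for ERBB4 (2064 to 3707 CPM).

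The mean of EREG was highest in mural-like nuclei. Its level there was 20.2 CPM in Du'an goat 2, 14.2 in Nubian goat 1 and 32.2 in Nubian goat 2, from 570 UMIs in 292 nuclei. In cumulus-like nuclei it was 0.165 and 0.59 CPM in the Du'an goats and 0.566 and 0.52 in the Nubian goats. The lowest mural-like value thus stood far above the highest cumulus-like value, and the groups did not overlap. The log2 difference was 5.53 ± 0.56 (SE derived from the F statistic), with an adjusted p of 0.000572 by edgeR's quasi-likelihood test.

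The EREG signal of mural-like nuclei was spread over many nuclei, since the top nucleus held 2.63% of the UMIs and 4 nuclei held 10 or more. In progenitor-like nuclei the level was 4.44, 1.33, 2.07 and 2.86 CPM in Du'an goats 1 and 2 and Nubian goats 1 and 2, but 29 of the 31 UMIs of Du'an goat 1 lay in 1 nucleus. Mural-like nuclei exceeded these values by 3.00 ± 0.54 on the log2 scale (adjusted p = 0.00137, edgeR). Within Nubian goat 1, EREG was 16.7 CPM in the larger mural-like subcluster of 3574 nuclei and 1.24 CPM in the subcluster of 597 nuclei. Epithelial-like nuclei reached 45.2 CPM in Du'an goat 2 but 0, 20.3 and 7.36 in the other goats, with 17 of their 39 UMIs in a single nucleus. Ciliated-like nuclei had 15.7 CPM in Du'an goat 2 and 25.2 in Nubian goat 2, so that the ranges of these classes and of mural-like nuclei overlapped. Without the top nucleus of each sum, an alternative chosen after the data had been seen, EREG was 6.45 to 7.08 CPM in ciliated-like, 0 to 10.3 in epithelial-like and 13.5 to 29.4 in mural-like nuclei, and the mural-like range then stood above both.

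AREG, the other early ligand of this relay, was scarcely detected in GCs at this depth. It gave 3 UMIs in mural-like nuclei, 2 in cumulus-like and 1 in cycling nuclei, which is at or under the 3 counts taken as the floor, and 8 UMIs in 6 progenitor-like nuclei. The mean level was 0.227 ± 0.241 CPM (SD, n = 3) in mural-like and 0.0867 ± 0.173 (n = 4) in cumulus-like nuclei. An AREG UMI was found in 3 of 6148 mural-like nuclei, a share of 0.0488% (95% exact interval 0.0101 to 0.143), which limits nuclei with a UMI and not nuclei that use the gene. AREG was filtered out of the comparison of states for low counts.

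AREG was instead found in ciliated-like nuclei, at 129 CPM in Du'an goat 2 and 179 CPM in Nubian goat 2, and at 21.5 and 16.1 CPM in the epithelial-like nuclei of the same goats. The other 2 goats had 0 UMIs in epithelial-like nuclei, from sums of 22 nuclei in Du'an goat 1 and 34 in Nubian goat 1. Such small sums can miss a gene at these levels, and ciliated-like nuclei of both goats were too few for a sum. Ciliated-like nuclei stood apart from all others in the order of levels, since their lowest value exceeded the highest epithelial-like one. Of the 125 AREG UMIs in all ciliated-like nuclei, 13 lay in the top nucleus. Macrophage-like nuclei had 2.35, 2.02, 0 and 10.4 CPM in Du'an goats 1 and 2 and Nubian goats 1 and 2, from 21 UMIs in 6 nuclei. Against the mean of the other classes AREG was higher in ciliated-like (log2 8.85 ± 0.47, adjusted p = 3.9e-18, edgeR), epithelial-like (5.25 ± 0.63, adjusted p = 1.79e-08) and macrophage-like nuclei (3.48 ± 0.66, adjusted p = 3.28e-05). These folds depend on the many classes near 0 and give no bound, and the calls in epithelial-like and macrophage-like nuclei were each lost under 1 alternative (adjusted p = 0.189 and 0.392). AREG also passed the filter on low counts only through the classes in which it was high. The tests are therefore no support independent of those levels.

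BTC was higher in cumulus-like than in mural-like or progenitor-like nuclei. In cumulus-like nuclei it was 28.8, 23.8, 16.2 and 23.2 CPM, and in mural-like nuclei 8.28, 3.76 and 3.84 CPM in Du'an goat 2, Nubian goat 1 and Nubian goat 2. The 2 sets did not overlap, and the log2 difference of mural-like against cumulus-like was -1.78 ± 0.36 (adjusted p = 0.00673, edgeR). Progenitor-like nuclei had 4.72, 1.99, 6.2 and 5.11 CPM, all below every cumulus-like value, and cumulus-like nuclei were higher by 2.14 ± 0.35 on the log2 scale (adjusted p = 0.000766). BTC in cycling nuclei was 24.3, 24 and 18.6 CPM in 3 goats but 5.06 in Nubian goat 1, and the test against the other states did not pass (log2 0.86 ± 0.28, adjusted p = 0.0529). The highest mean of all was in ciliated-like nuclei, at 65.9 and 59.6 CPM. Pericyte-like nuclei came next on 22 UMIs, with 28.8, 86.6, 15.8 and 0 CPM, so that they overlapped both ciliated-like and cumulus-like nuclei.

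The mean of NRG1 was highest in progenitor-like nuclei, at 85 and 576 CPM in the Du'an goats and 276 and 126 in the Nubian goats. Cumulus-like nuclei held 32.2, 32.2, 35 and 21 CPM and mural-like nuclei 14.8, 9.49 and 6.72 CPM, so that the 3 states did not overlap. The log2 difference of mural-like nuclei was -4.54 ± 0.46 against progenitor-like ones (adjusted p = 3.49e-05, edgeR) and -1.65 ± 0.44 against cumulus-like ones (adjusted p = 0.0218), and that of cumulus-like against progenitor-like nuclei was -2.89 ± 0.38 (adjusted p = 0.000183).

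The progenitor-like level rested on few nuclei in 2 of the goats. Subcluster 14, a set of 269 progenitor-like nuclei led by PDGFRA, a receptor of mesenchymal cells, held 43.7% of the 3936 NRG1 UMIs of the state. It held 851 of 868 UMIs in Du'an goat 2 (84 nuclei, 1206 CPM) and 723 of 801 in Nubian goat 1 (125 nuclei, 1496 CPM), but 141 of 1673 in Nubian goat 2 and 5 of 594 in Du'an goat 1. Without it the progenitor-like level of NRG1 was 86.4, 21.2, 32.3 and 117 CPM, a range that overlapped the cumulus-like one. Du'an goat 2 then had the lowest value in place of the highest.

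Summed over goats, at most 5.19% of the progenitor-like UMIs of any of the other 6 genes (EREG) lay in that subcluster, but the shares differed by goat. In Du'an goat 2 it held 47.4% of the ERRFI1, 29.3% of the EGFR and 22.5% of the ERBB4 UMIs, 1 of 3 BTC UMIs and both EREG UMIs. In Nubian goat 1 it held 14.9% of the EGFR, 6.55% of the ERRFI1 and 3.07% of the ERBB4 UMIs. In an alternative chosen after the data had been seen, in which it was left out, NRG1 stayed lower in mural-like than in progenitor-like nuclei (log2 -2.41, adjusted p = 0.00486, edgeR). Neither NRG1, cumulus-like against progenitor-like (-1.16, adjusted p = 0.0735), nor NRG1, mural-like against cumulus-like (-1.25, adjusted p = 0.0949), then passed.

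Theca-like and macrophage-like nuclei also carried NRG1. Theca-like nuclei had 367, 171, 146 and 122 CPM, but the value of Du'an goat 1 fell to 46.3 without its top nucleus. Macrophage-like nuclei had 195, 61.9, 135 and 96.8 CPM and epithelial-like nuclei 44.6 to 235 CPM, which became 0 to 102 CPM without the top nucleus of each sum. All 3 classes exceeded the mean of the other classes in edgeR's test, theca-like nuclei by 2.31 ± 0.31 on the log2 scale (adjusted p = 1.18e-07), macrophage-like nuclei by 1.78 ± 0.28 (adjusted p = 5.42e-07) and epithelial-like nuclei by 1.48 ± 0.37 (adjusted p = 0.00154, and 0.0915 under 1 alternative).

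EGFR, the receptor of AREG, EREG and BTC, was broadly present in GCs. Its level was 543, 697 and 607 CPM in mural-like nuclei, 725, 482, 575 and 621 in progenitor-like nuclei, and 578, 312, 290 and 523 in cumulus-like nuclei. Mural-like nuclei were higher than cumulus-like nuclei of the same goat in 3 of 3 goats, by 0.87 ± 0.20 on the log2 scale (adjusted p = 0.0122, edgeR), although the ranges overlapped through Du'an goat 1, which lacks a mural-like sum. Cumulus-like nuclei were lower than progenitor-like ones in 4 of 4 goats, with a log2 difference of -0.59 ± 0.18 (adjusted p = 0.0321). Mural-like and progenitor-like levels did not differ past the threshold (0.28 ± 0.20, adjusted p = 0.338).

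Outside the GCs, EGFR followed a step in the order of classes. Smooth muscle-like nuclei, at 162 to 263 CPM, stood above blood endothelial-like nuclei, at 63.1 to 125 CPM, without overlap, and this was the only gap between neighbours in the EGFR order. The lowest levels were in T or natural killer-like nuclei, at 46.7 to 83.3 CPM. Fibroblast-like nuclei held 404 to 524 CPM.

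**Figure D2:**
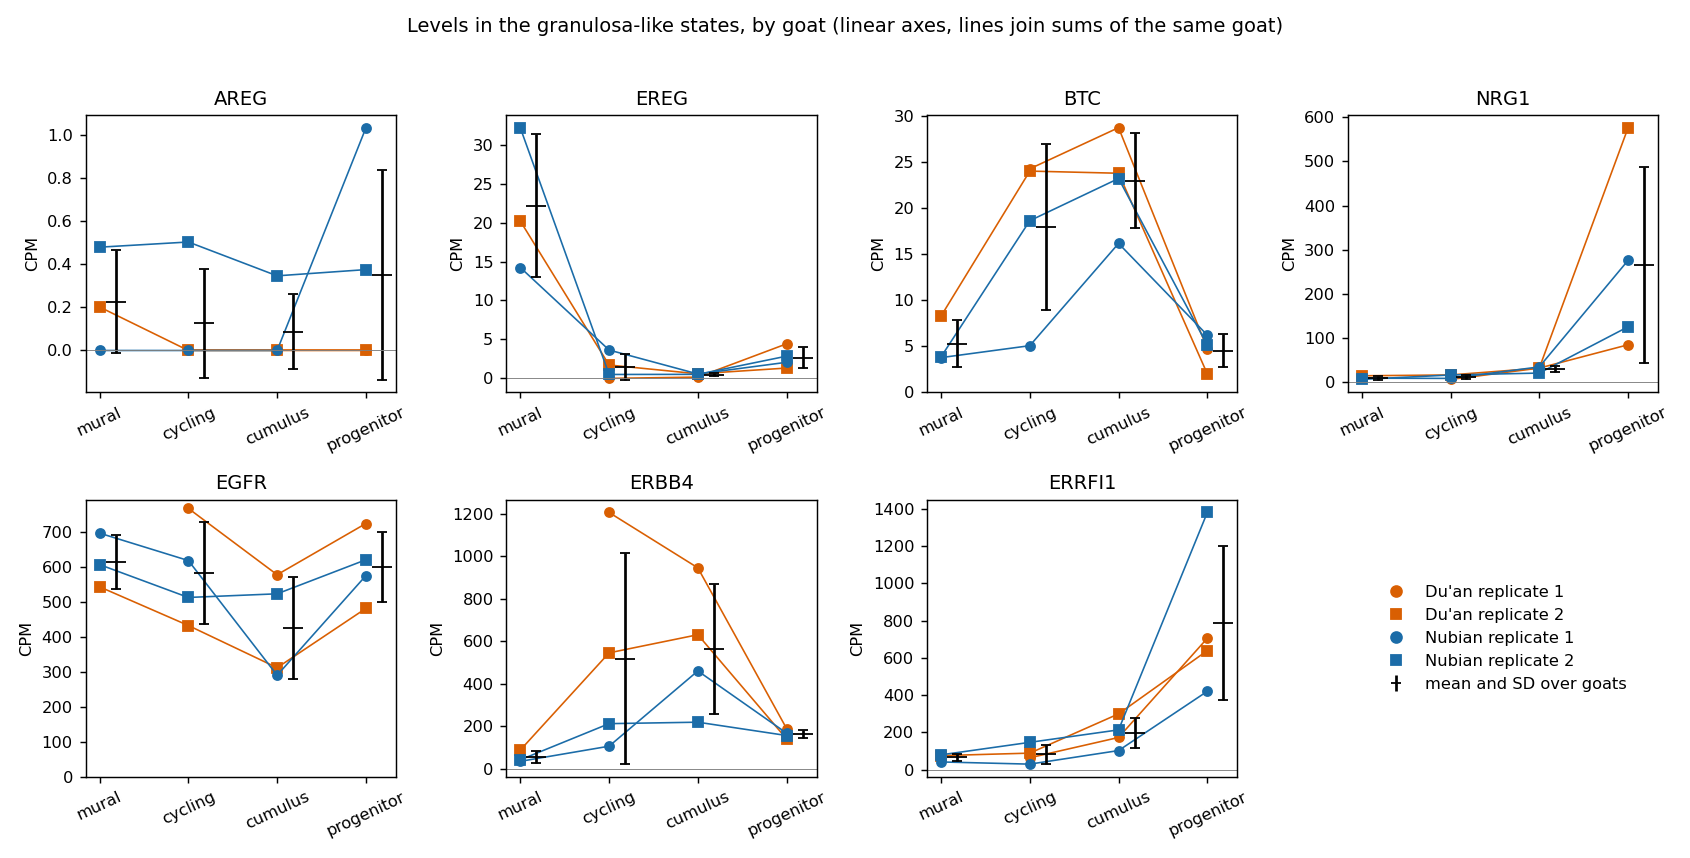
Level (CPM, linear axes) of the 7 genes in the 4 granulosa states, with lines joining the sums of 1 goat and black marks for the mean and SD over goats. The mean of EREG is highest in mural-like nuclei (22.2 CPM), those of BTC (23) and ERBB4 (564) in cumulus-like nuclei and those of NRG1 (266) and ERRFI1 (786) in progenitor-like nuclei, where the NRG1 points of the goats lie far apart.

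ERBB4, a receptor whose ligands include NRG1 and BTC, was higher in cumulus-like than in mural-like nuclei, where EREG had the reverse direction. Cumulus-like nuclei had 946 and 631 CPM in the Du'an goats and 461 and 220 in the Nubian goats, against 89.1, 36 and 43.2 CPM in mural-like nuclei. The groups did not overlap, and the log2 difference of mural-like nuclei was -2.79 ± 0.47 (adjusted p = 0.00272, edgeR). Progenitor-like nuclei had 190, 141, 169 and 157 CPM, a narrow range that lay between those 2 states. Against progenitor-like nuclei the log2 difference was 1.44 ± 0.40 for cumulus-like (adjusted p = 0.0179) and -1.34 ± 0.44 for mural-like nuclei (adjusted p = 0.0384), and both calls were lost under some alternatives (up to adjusted p = 0.114 and 0.136).

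Cycling nuclei had 1206 and 546 CPM of ERBB4 in the Du'an goats and 107 and 213 in the Nubian goats. In Nubian goat 1 the cycling class was mostly subcluster 10, which carried mural markers, and ERBB4 there was 31.9 CPM against 749 CPM in the 99 nuclei of cycling subcluster 9. Within subcluster 9 the 4 goats had 1206, 641, 749 and 217 CPM, and the breeds overlapped. Epithelial-like nuclei held the most ERBB4, at 2064, 2682, 2149 and 3707 CPM, and stood apart from ciliated-like nuclei at 1358 and 1439 CPM, which in turn stood apart from cumulus-like nuclei. The epithelial-like name was only partly met, with 5 of 8 epithelial markers at their highest there. That list summed to 619 CPM against 556 in ciliated-like nuclei, and the T or natural killer markers summed to 635 CPM in epithelial-like nuclei. Blood endothelial-like nuclei came next after the cycling class, at 109 to 434 CPM.

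ERRFI1, the feedback inhibitor of EGFR, had its lowest mean of all 15 classes in mural-like nuclei, although cycling nuclei of Nubian goat 1 were lower still at 30.3 CPM. Its level was 76, 42.1 and 80.1 CPM there, 173, 300, 103 and 214 in cumulus-like nuclei and 705, 639, 421 and 1379 in progenitor-like nuclei. None of these 3 ranges overlapped another. The log2 difference of mural-like nuclei was -1.40 ± 0.26 against cumulus-like nuclei (adjusted p = 0.00418, edgeR) and -3.43 ± 0.28 against progenitor-like nuclei (adjusted p = 9.7e-06). Smooth muscle-like nuclei had the highest mean, at 608, 1406, 892 and 1141 CPM, which overlapped the progenitor-like range.

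Counted over the 6 genes that could be tested between states, 2 were higher and 4 lower in mural-like against cumulus-like nuclei. Over all 13079 genes tested, 7.67% were higher and 10.3% lower in that contrast, and the median log2 difference of all genes was -0.02. Against progenitor-like nuclei, 1 of 6 was higher and 3 lower in mural-like nuclei, where 13% and 16.5% of all genes were. In cumulus-like against progenitor-like nuclei 2 were higher and 4 lower, where 11.7% and 14.7% of all genes were. Cycling nuclei against the other 3 states had 1 higher (ERBB4, log2 1.05 ± 0.32, adjusted p = 0.039) and 2 lower (NRG1, -1.76 ± 0.37, adjusted p = 0.00529, and ERRFI1, -1.54 ± 0.21, adjusted p = 0.000197), where 12.4% and 7.56% of all genes were. In every called contrast between single states the direction was the same in each goat that had both sums. The calls of cycling nuclei were not counted by goat in this way. ERBB4 in Nubian goat 1 was 107 CPM in cycling nuclei, below cumulus-like (461) and progenitor-like (169) and above mural-like nuclei (36). That cycling call was lost under 3 alternatives. Of all 19 calls between states, 9 held under every alternative processing and 10 were lost under at least 1. EGFR in cumulus-like against progenitor-like nuclei was lost most often, under 7 alternatives (up to adjusted p = 0.189). Without Du'an goat 2, 1 of the 3 goats with a mural-like sum, 12 of the 19 were called. Among those lost then were EGFR, mural-like against cumulus-like (adjusted p = 0.141), and ERRFI1, mural-like against cumulus-like (adjusted p = 0.0605), and both were also lost without the goat as a block (adjusted p = 0.0778 and 0.073).

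Across the 15 classes, 28 of the 105 gene and class pairs were called higher and 25 lower than the mean of the other classes. Epithelial-like nuclei had 5 genes higher and 1 lower, where 15.1% and 9.94% of 14835 genes were, and ciliated-like nuclei had 4 higher and 0 lower, where 17.1% and 8.92% were. Cumulus-like nuclei had 3 higher (BTC, EGFR and ERBB4) and 0 lower, where 20.5% and 14.9% of genes were, and progenitor-like nuclei also 3 higher (NRG1, EGFR and ERRFI1) and 0 lower, where 17.4% and 11.1% were. Mural-like nuclei had 2 higher (EREG and EGFR) and 3 lower (NRG1, ERBB4 and ERRFI1), where 18.2% and 15.2% were. Lymphatic endothelial-like nuclei had 0 higher and 5 lower, where 17.1% and 9.88% were, and T or natural killer-like nuclei 0 higher and 4 lower, where 30.4% and 23.7% were. Cycling nuclei had 3 higher (BTC, EGFR and ERBB4) and 2 lower (NRG1 and ERRFI1), where 21.7% and 16.8% were.

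In the remaining classes the calls were fewer or split. Macrophage-like nuclei had 2 higher (AREG and NRG1) and 4 lower, where 31.2% and 21.1% of genes were. Smooth muscle-like nuclei had 2 higher (NRG1 and ERRFI1) and 2 lower (BTC and ERBB4), where 16.2% and 6.65% were. Blood endothelial-like nuclei had 0 higher and 2 lower (EGFR and ERRFI1), where 19.5% and 10.1% were. Fibroblast-like nuclei had 1 higher (EGFR) and 1 lower (ERBB4), where 11.5% and 4.89% were, and theca-like nuclei 1 higher (NRG1) and 1 lower (ERBB4), where 9.96% and 6.4% were. ERRFI1 in mixed mesenchymal nuclei (11.1% and 2.09% of genes higher and lower) and BTC in pericyte-like nuclei (7.74% and 3.42%) were the lone calls of their classes, both higher. Of the 53 calls, 38 held under every alternative.

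**Figure D3:**
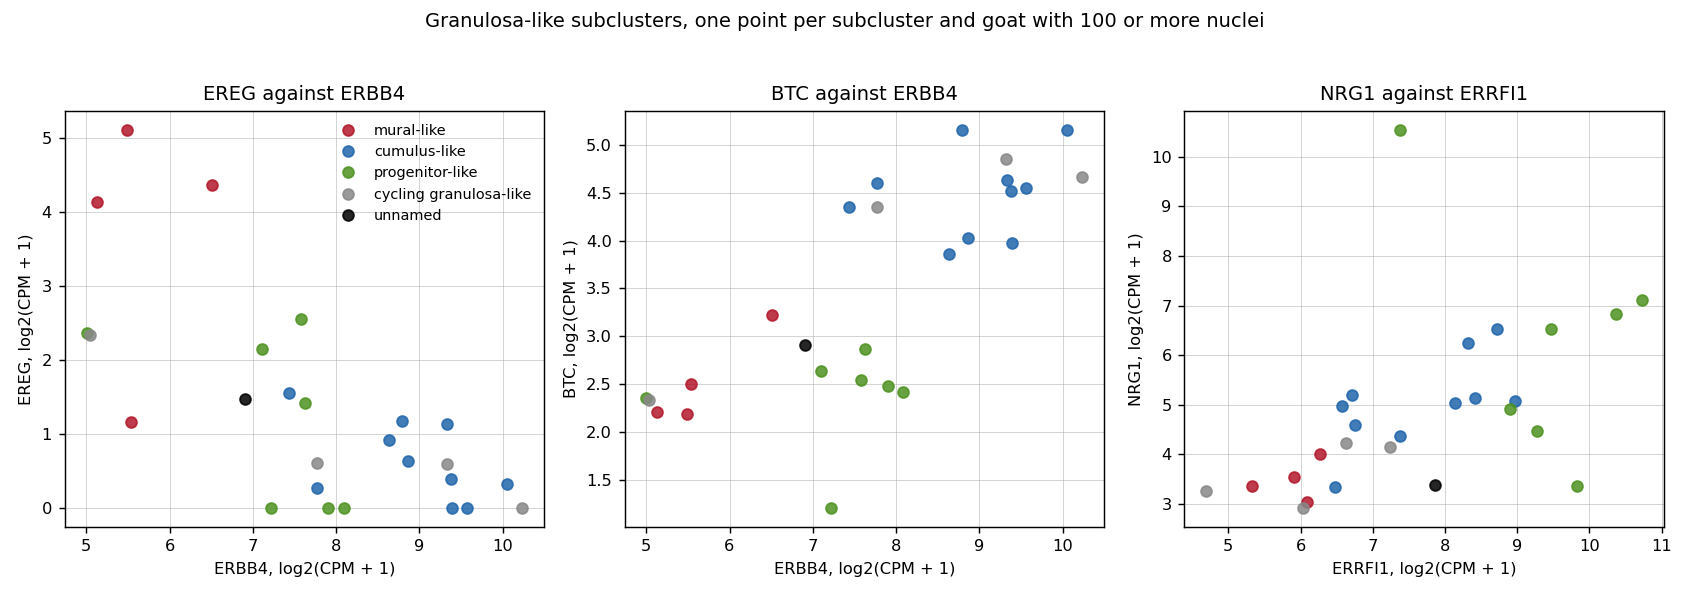
Levels of EREG against ERBB4, BTC against ERBB4 and NRG1 against ERRFI1 on the log2(CPM + 1) scale in granulosa subclusters, with 1 point per subcluster and goat of at least 100 nuclei, coloured by the state the subcluster was named for. EREG in mural-like subclusters runs from 1.24 to 33.6 CPM, ERBB4 in cumulus-like subclusters from 172 to 1057 CPM, and the highest NRG1 point is progenitor-like subcluster 14 of Nubian goat 1 at 1496 CPM.

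The share of nuclei with a UMI was compared with T or natural killer-like nuclei, which were taken as the class that should lack AREG, EREG, BTC, EGFR and ERBB4. That was an assumption, which was not tested, and no share of AREG is compared on it here. With each nucleus thinned to 1000 UMIs, EREG was seen in 1.14% of mural-like nuclei (95% exact interval 0.889 to 1.45) and in 0.134% of T or natural killer-like nuclei. EGFR was seen in 43.8% of mural-like nuclei (42.5 to 45) against 5.92%. ERBB4 was seen in 87.1% of epithelial-like, 28.7% of cumulus-like and 3.61% of mural-like nuclei against 5.35%. BTC was seen in 1.98% of cumulus-like and 0.319% of mural-like nuclei (0.192 to 0.498) against 0.312%. These shares pool the goats. Of 6148 mural-like nuclei 4232 came from Nubian goat 1. Of 2491 T or natural killer-like nuclei 1621 came from Du'an goat 2. By goat (Du'an 2, Nubian 1, Nubian 2), ERBB4 was 89.1, 36 and 43.2 CPM in mural-like nuclei against 72.9, 75.7 and 24.8. BTC was 8.28, 3.76 and 3.84 CPM there against 2.65, 5.1 and 0.993. The pooled mural-like shares of ERBB4 and BTC are therefore not read as background. NRG1 was seen in 4.55% of progenitor-like and 1.21% of mural-like nuclei (0.948 to 1.52) against 1.16%. ERRFI1 was seen in 41.4% of progenitor-like and 4.99% of mural-like nuclei against 5.66%. T or natural killer-like nuclei were not taken to lack NRG1 or ERRFI1, so no background is read for these genes. Without thinning, EREG was seen in 4.75% of mural-like nuclei at a median of 4475 UMIs and in 0.201% of T or natural killer-like nuclei at a median of 2244. The intervals cover counting error only, and 10328 nuclei under 1000 UMIs were left out.

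**Figure D4:**
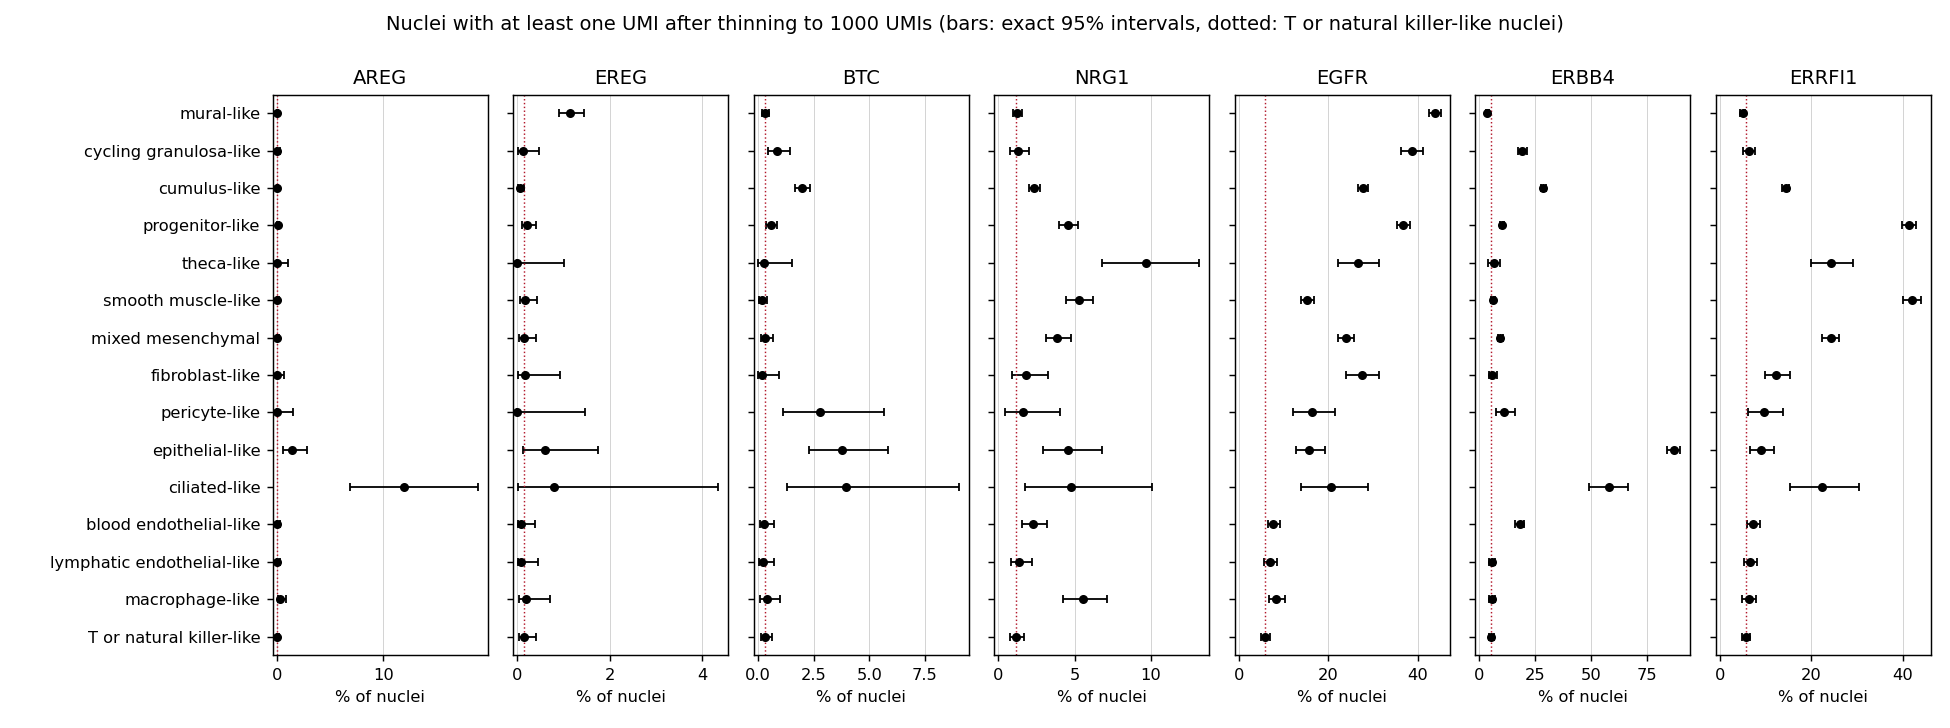
Share of nuclei (percent) with at least 1 UMI of each gene after thinning to 1000 UMIs, by class, with exact 95% intervals as bars and the share in T or natural killer-like nuclei as a dotted line. EREG in mural-like nuclei (1.14%) lies to the right of the line, while BTC (0.319%), NRG1 (1.21%), ERBB4 (3.61%) and ERRFI1 (4.99%) in mural-like nuclei lie on it or to its left.

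Of the 292 mural-like nuclei with an EREG UMI, 269 (92.1%) also had an EGFR UMI, against 78.9% of all mural-like nuclei, as a description, since deeper nuclei have more of both. Over the 15 GC sums, Pearson's r on the log2(CPM + 1) scale was -0.85 between EREG and ERBB4, 0.81 between BTC and ERBB4 and 0.84 between NRG1 and ERRFI1, the pairs with the largest absolute values of the 21. Over all 57 sums the same pairs had 0.31, 0.65 and 0.40, so that the sign for EREG and ERBB4 turned. The NRG1 values include subcluster 14, which held 98% and 90.3% of the progenitor-like NRG1 UMIs of Du'an goat 2 and Nubian goat 1. In Nubian goat 1 this subcluster had 165 CPM of ERRFI1, against 472 in the other progenitor-like nuclei. In Du'an goat 2 it had 646 against 633 CPM. The part of this subcluster in the value for NRG1 and ERRFI1 was not tested. Over these 57 sums and 15100 genes, the genes most alike in pattern were KIF17 (0.74), FBXO16 (0.72) and B4GALT4 (0.72) for EREG and LOC106503091 (0.93), LOC102189713 (0.88) and ROPN1 (0.86) for AREG. For BTC they were PDZD8 (0.71), PPM1J (0.67) and ATP2A2 (0.66), and for NRG1 WWC1 (0.68), RASSF4 (0.63) and CADM1 (0.63). For EGFR they were BMPR1A (0.86), CASK (0.86) and TUSC3 (0.85), for ERBB4 SLC44A3 (0.85), DSG2 (0.84) and C6H4orf19 (0.83), and for ERRFI1 TNFRSF19 (0.80), GUCY1A2 (0.72) and LOC102180115 (0.70). The sums share goats and libraries, so these are descriptions of likeness only.

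The other ligands of the family filled in part of the pattern. Of 7 listed, 4 could be tested between states. TGFA, a further EGFR ligand, was 38.3 ± 9.1 CPM (SD, n = 4) in cumulus-like and 43.6 ± 8.22 in progenitor-like nuclei but 3.77 ± 1.72 (n = 3) in mural-like nuclei, with a log2 difference of -3.27 ± 0.38 against cumulus-like nuclei (adjusted p = 0.000671, edgeR). NRG2 ran the other way, with 50.2 ± 26.7 CPM in mural-like and 9.5 ± 1.91 in cumulus-like nuclei (log2 2.71 ± 0.45, adjusted p = 0.0027). NRG4 was higher in cumulus-like than in progenitor-like nuclei (1.49 ± 0.25, adjusted p = 0.00103), and NRG3 passed in no contrast. HBEGF was 75.1 ± 9.08 CPM (n = 2) in ciliated-like, 17.4 ± 6.71 (n = 4) in macrophage-like and 10.1 ± 19.1 (n = 4) in epithelial-like nuclei, and averaged at most 1.24 CPM in the granulosa states. EGF and EPGN averaged at most 0.75 and 0.446 CPM in these states.

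Of the other 2 receptors, ERBB2, which has no ligand of its own and pairs with the others, was 8.3 ± 0.379 CPM in mural-like and 29.7 ± 3.21 in cumulus-like nuclei (log2 -1.53 ± 0.20, adjusted p = 0.00106, edgeR). ERBB3 was 34.3 ± 13.9 CPM in epithelial-like and 19.7 ± 1.27 in ciliated-like nuclei and averaged at most 0.0358 CPM in the GC states.

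For the lists that follow, the shares of all genes called are those given above, 7.67% higher and 10.3% lower in mural-like against cumulus-like, 13% and 16.5% in mural-like against progenitor-like and 11.7% and 14.7% in cumulus-like against progenitor-like nuclei. Among 4 genes of ligand shedding, 1 was higher and 0 lower in mural-like against cumulus-like nuclei, which is a single gene. RHBDF2, a partner of ADAM17, was 17.7 ± 17.5 CPM in mural-like and 1.64 ± 0.434 in cumulus-like nuclei (log2 3.16 ± 0.58, adjusted p = 0.00402, edgeR), with a wide spread over goats. ADAM17 itself was 120 ± 54.3 CPM in mural-like and 73.1 ± 22.8 in cumulus-like nuclei and did not pass (0.77 ± 0.28, adjusted p = 0.0792), but it was higher than in progenitor-like nuclei (1.09 ± 0.29, adjusted p = 0.0128). ADAM10, a protease also in this list, was 231 ± 16 CPM in mural-like, 265 ± 23.6 in cumulus-like and 359 ± 77.4 in progenitor-like nuclei.

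Of 13 tested feedback inhibitors of receptor signalling, 4 were higher and 1 lower in mural-like against cumulus-like nuclei, where 7.67% and 10.3% of all genes were. Against progenitor-like nuclei 2 were higher and 7 lower both in mural-like nuclei, with a median log2 difference of -0.71 beside -0.01 for all genes, and in cumulus-like nuclei, with -0.42 beside 0.02. LRIG3 was 77.2 ± 13.7 CPM in progenitor-like and 27.3 ± 9.11 in cumulus-like nuclei (log2 -1.63 ± 0.17, adjusted p = 3.79e-05, edgeR), and SPRED2 was 101 ± 19.1 against 43.6 ± 6.78 (-1.26 ± 0.20, adjusted p = 0.000637). SOCS3 (-3.13 ± 0.41, adjusted p = 0.000189) and DUSP4 (-2.92 ± 0.50, adjusted p = 0.0011) were lower too, at 1.38 and 0.356 CPM on average in cumulus-like nuclei. Of 14 adaptor and MAPK genes 0 were higher and 1 lower in mural-like against cumulus-like nuclei, no more than the 7.67% and 10.3% of all genes, the lower one being GAB1, a docking protein of EGFR (-0.56 ± 0.17, adjusted p = 0.0374).

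Of 12 listed genes of ovulation and cumulus expansion, 11 had a feature and 8 were tested, the rest being filtered out for low counts. The counts that follow thus say nothing of the listed genes that were scarcely detected. Of the 8 tested, 3 were higher and 2 lower in mural-like against cumulus-like nuclei, where 7.67% and 10.3% of all genes were. Against progenitor-like nuclei 3 were higher and 4 lower in mural-like nuclei (median log2 difference -0.30) and 1 higher and 4 lower in cumulus-like nuclei (-0.69). VCAN, a matrix proteoglycan of the expanding cumulus, was 3477 ± 1351 CPM in mural-like and 1926 ± 280 in cumulus-like nuclei (log2 0.85 ± 0.24, adjusted p = 0.0262, edgeR). RUNX2 was 8022 ± 3355 CPM in progenitor-like and 90.4 ± 15.9 in mural-like nuclei (-6.14 ± 0.53, adjusted p = 1.29e-05). Of 9 tested genes of the luteinising hormone response and meiotic arrest, 6 were higher and 1 lower in mural-like against cumulus-like nuclei, beside the same 7.67% and 10.3% of all genes. LHCGR, which is in this list, was also used to name the mural-like state and is not independent of it. FSHR, also listed, was a marker for entry to the granulosa set but not for naming the states. PRKAR2B, a regulatory subunit of protein kinase A, was 4747 ± 525 CPM in mural-like and 2130 ± 334 in cumulus-like nuclei (1.32 ± 0.25, adjusted p = 0.00464).

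Between breeds, 0 of 54 gene and class pairs passed at an adjusted p of 0.05 by edgeR, and 0 of 108744 pairs did over all genes. At an unadjusted p under 0.05 there were 7 of the 54, beside 4.2% of all pairs. With 2 goats against 2 an exact permutation test cannot go below 0.333. In 10 pairs the Nubian goats were both higher than both Du'an goats and in 9 both were lower, where 16.2% and 15.1% of all pairs were.

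ERBB4 was lower on average in the Nubian goats in 11 of the 12 classes tested and did not overlap in 5 of them, where 10.5% to 17.6% of all genes tested in those 5 classes were lower in the Nubian goats without overlap. The classes come from the same 4 goats and are not independent. The 11 include T or natural killer-like nuclei, taken above to lack ERBB4, with means of 65.4 CPM in Du'an and 50.3 in Nubian goats. Over all kept nuclei of a library ERBB4 was 392 and 383 CPM in the Du'an goats and 138 and 374 in the Nubian goats. The value of Nubian goat 2 includes 392 epithelial-like nuclei at 3707 CPM. Du'an goats 1 and 2 and Nubian goat 1 had 22, 91 and 34 such nuclei. The part of such library-wide levels in the count of classes was not tested. In blood endothelial-like nuclei it was 414 and 434 CPM in the Du'an goats and 109 and 136 in the Nubian goats (log2 -1.81 ± 0.26, adjusted p = 0.999, edgeR). In cycling nuclei the difference was -2.40 ± 0.50 (adjusted p = 0.998) and in cumulus-like nuclei -1.26 ± 0.38 (adjusted p = 1). Within cumulus-like subcluster 3 the goats had 1057, 441, 521 and 218 CPM and the breeds overlapped. That overlap rests on 80 nuclei of Nubian goat 1, which were 3.78% of its cumulus-like nuclei. In epithelial-like nuclei the Nubian goats were higher on average, with overlap.

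EGFR in macrophage-like nuclei was 21.2 and 42.9 CPM in the Du'an goats and 147 and 106 in the Nubian goats (log2 1.80 ± 0.43, adjusted p = 0.555, edgeR). NRG1 in smooth muscle-like nuclei was 31 and 49.6 CPM against 82.4 and 115 (1.38 ± 0.30, adjusted p = 0.999). Neither passed, and neither did any other of the 54 pairs in the test as planned. DESeq2 called 1 pair, ERBB4 in cycling nuclei (adjusted p = 0.015), which Nubian goat 1 drew largely from another subcluster than the other goats. Without a filter on low counts edgeR called 5 pairs, which were ERBB4 in blood endothelial-like and cycling nuclei, EGFR in macrophage-like nuclei and NRG1 in mixed mesenchymal and smooth muscle-like nuclei. The shares of all gene and class pairs called under these settings are not given here. These calls are therefore not read as breed differences particular to these genes.

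**Figure D5:**
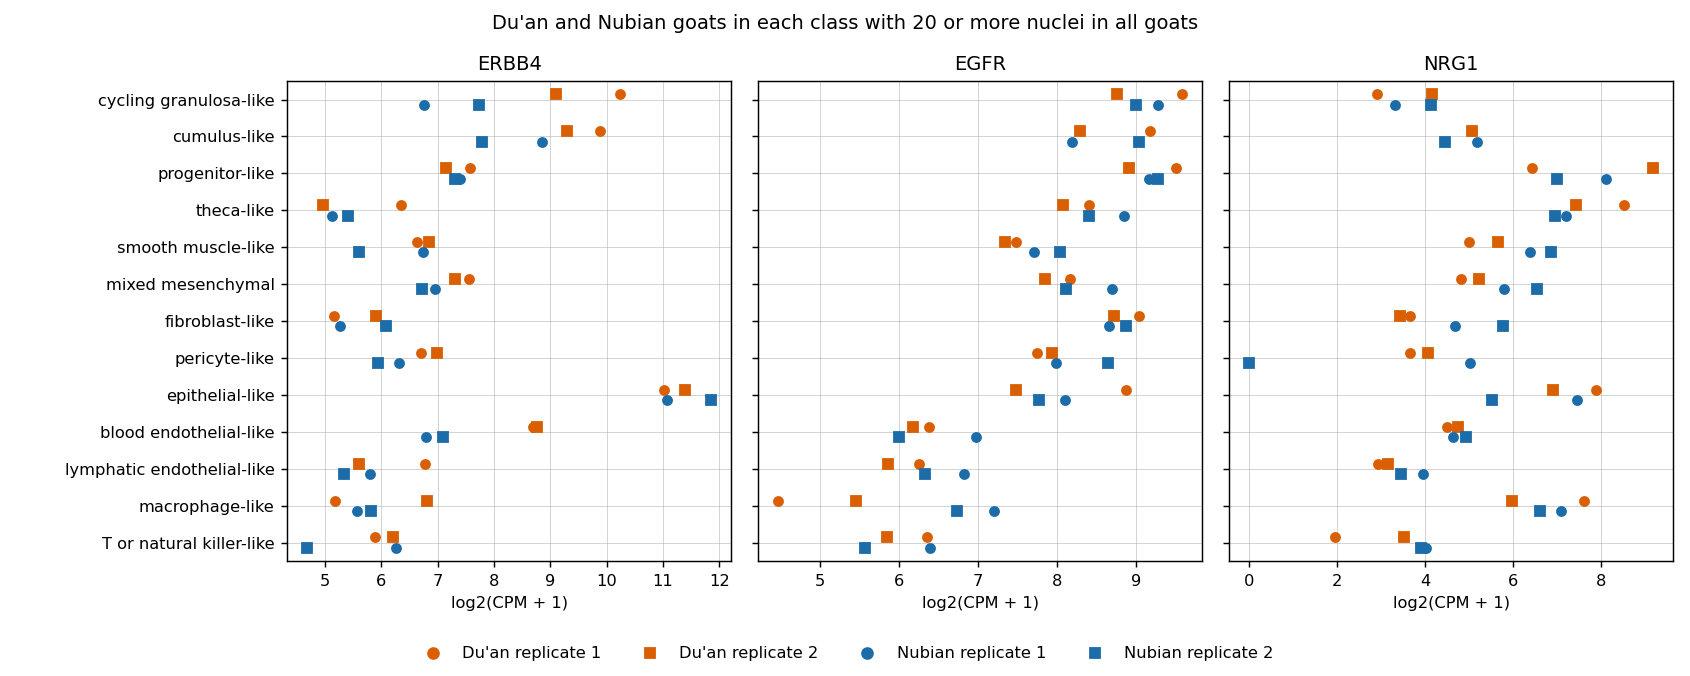
Level of ERBB4, EGFR and NRG1 on the log2(CPM + 1) scale in the 13 classes with sums in all 4 goats, with 1 point for each of the 2 Du'an and 2 Nubian goats. ERBB4 lies lower in both Nubian goats in blood endothelial-like nuclei (109 and 136 against 414 and 434 CPM), while in epithelial-like nuclei the goats overlap.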

How the data were processed

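Single-nucleus RNA-seq libraries from the ovaries of 4 goats were deposited as count matrices, in which the authors had counted UMIs per gene and barcode. Cell Ranger 5.0.0 and Seurat are named in the submitters' processing notes, while the matrix headers give software version 3.1.0, and the genome build is not given in the labels used here. The study's methods link a goat reference genome, which was not used here. The deposited tables of granulosa subtype and follicle stage markers hold the authors' natural-log fold changes, p-values and percent detected, and were not used.

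Nuclei outside the mean ± 2 SD of UMIs or genes, or with over 20% mitochondrial counts, were removed. Scrublet marked 0.312% of nuclei at an expected rate of 10% and so had not worked. The nuclei it marked, 151 in Du'an goat 2 and 0 in each other goat, were removed too, which left 44734 nuclei. No further doublets were removed in the main analysis. Clustering used scanpy 1.11.5 with leidenalg 0.10.2, on 2000 variable genes, 30 components and 20 neighbours at a resolution of 0.8, and 0.5 for the granulosa set. The 7 genes, the pathway lists and the markers were barred from the variable gene set. Clusters were named from marker lists, by limits set after the data had been seen. 5946 nuclei stayed unnamed.

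UMIs were summed per goat and class. Sums of at least 20 nuclei were fitted with edgeR 4.0.16 (quasi-likelihood test, TMM, R 4.3.3) on the counts, with the goat as a block for classes (57 sums, 14835 genes) and states (15 sums, 13079 genes), and by breed within each of 13 classes. Adjusted p-values are Benjamini-Hochberg values over all genes of a fit, and a call is an adjusted p under 0.05. The SE after a log2 difference is not an output of edgeR. It is the absolute log2 difference divided by the square root of the test's F statistic, and so is approximate. On simulated data for the state fit of mural-like against cumulus-like nuclei (13079 genes), 95% of 4-fold and 38% of 2-fold changes were called. The simulation held no uneven subcluster make-up and no spread particular to a gene, so these shares can be too high. The members and lists were chosen with earlier results of these data known. The rule for named genes took all 7 members, the 3 genes most alike to each, and in each pathway list up to 4 genes with the smallest adjusted p between states. The goats are separate animals, but each gave 1 library. With the goat as a block, p-values for classes and states measure how far class differences vary among the same 4 libraries. Those between breeds measure the spread between the goats of a breed. Alternatives were DESeq2 1.42.0, other size factors, no filter on low counts, other resolutions, depth and size limits, removal of top doublet scores, other depths of thinning, no goat block, the replicate block and leaving out each goat. No per-sample column outside the 4 libraries was present. Feature names were matched to RefSeq symbols (ARS1.2) for 27165 of 28944 genes. Of the listed genes, CYP11A1 was read under LOC102173131.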

Additional observations from a re-analysis of the deposited data

Results flagged for a closer look

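Among 68 groups of 4 goats, 2 had a goat far from the other 3 by Dixon's 95% criterion, where chance gives about 1 in 20. EREG in cumulus-like nuclei was 0.165 CPM in Du'an goat 1 against 0.52 to 0.59 in the other goats, which is 1 UMI. ERRFI1 in macrophage-like nuclei was 158 CPM in Nubian goat 2 against 44.7 to 54.6 in the others.

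A cluster of nuclei with high FSHR that no name could be given to, and that entered no comparison, also held some of these genes above the limit that a count of 0 allows. Over its goats together it had 3.03 CPM of BTC, 28.1 of NRG1, 303 of EGFR, 241 of ERBB4 and 697 of ERRFI1, and 0 UMIs of AREG and EREG. These pooled values rest mostly on Du'an goat 1, which held 1797 of the 2247 nuclei, and single goats ran from 196 to 1811 CPM for ERRFI1 and from 2.45 to 15 for BTC.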

How the results depend on the processing

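Alternatives were other size factors, DESeq2, no filter on low counts, other resolutions, removal of top doublet scores, depth and size limits, no goat block and leaving out each goat. Chosen after the data had been seen were placing the FSHR-high cluster in the progenitor-like state, leaving out the PDGFRA-led subcluster or the top nucleus, and the crossed pairing. Member calls in each class against the other classes numbered 53 and ran from 47 to 54 when 1 goat was left out. Member calls between granulosa states numbered 19, and 12 to 17 when 1 goat was left out, with 12 without Du'an goat 2. Member calls between breeds numbered 0, but 1 with DESeq2, 5 with no filter on low counts and 0 to 2 when 1 goat was left out, the 2 without Nubian goat 2. A breed left with 1 goat is then assumed to vary like the other. The cause was not tested. Without the share of all pairs called in each setting, these breed counts are not read as results about the genes. EGFR, cycling granulosa-like against the other 3 states, was 0.03 on the log2 scale and turned to -0.14 without Nubian goat 1 (range -0.14 to 0.12 over the goats left out) and to -0.0072 without the PDGFRA-led subcluster. BTC in the same contrast passed under 6 alternatives. Shares of nuclei with a UMI rose with the number of UMIs kept.

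Replicate numbers in the labels are shared by different goats and pair no animals: deviations of same-numbered goats correlated between -0.253 and 0.218 over classes. With the replicate block 0 members were called between breeds, and the crossed pairing called 1 member and 280 of all gene and class pairs. On simulated data for the breed fit in cumulus-like nuclei (12602 genes), 86% of 4-fold and 24% of 2-fold changes were called. The simulated goats did not differ in subcluster make-up and had no spread particular to a gene, so these shares can overstate what the real sums allow.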
